A study of Caenorhabditis elegans with 3 samples.

Results

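In the authors' deposited expression table for Caenorhabditis elegans embryos, 242 of 40669 loci (0.595%) carry no gene identifier: the identifier field reads NA, and only a locus label, a chromosome and a start are given. All 242 were taken, whatever their level. They were examined in 3 genotypes, each with 1 pooled poly(A) RNA value per locus in FPKM, fragments counted per kilobase and scaled for library size. The DCC mutant (strain TY0810) carries the sdc-2 allele y93 and was grown on sdc-2 RNAi bacteria. SDC-2 is the hermaphrodite factor that loads the dosage compensation complex (DCC) onto X. The 8rex deletion (strain TY5827) lacks 8 recruitment elements on X (rex sites) through the alleles rex-8(y737), rex-14(y738), rex-32(y572), rex-33(y743), rex-35(y740), rex-43(y741), rex-47(y671) and rex-48(y742). Wild type was strain N2. The 8rex deletion and wild-type worms were fed HT115 bacteria with the empty vector pL4440.

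The DCC mutant pool held 3 replicates, the 8rex deletion pool 5 and the wild-type pool 5, per the labels. In each pool 2 replicates were embryos of mixed stages, most of them before the comma stage, taken from gravid hermaphrodites. The others were older: young adults were bleached 68 to 70 h after plating as L1 larvae, and their embryos were kept for 7 to 8 h at 20 °C, when most had reached the 3-fold stage, a late stage of elongation. Older replicates made up 33.3% of the DCC mutant pool, 60% of the 8rex deletion pool and 60% of the wild-type pool, so genotype and embryo stage cannot be told apart in the DCC mutant values. The replicates were combined before deposit. No value below has a standard deviation, no difference has a replicate check, and no test was made; p and q are the authors' own, as deposited. Whole embryos were used, so fewer cells of a type and less RNA per cell cannot be told apart. The depth of the libraries is unknown, and the FPKM columns summed to 928618 in the DCC mutant, 932664 in the 8rex deletion and 913501 in wild type. Differences are mutant minus wild type on the log2(FPKM + 1) scale, on which differences of low loci come out smaller than their fold, and a locus is called at least 2-fold different where that difference reaches 1.

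A transcript assembler joins overlapping RNA-seq reads into transcripts, and a locus with no matching annotated gene is left without a gene name. Such loci in a compact genome can be unannotated coding or non-coding genes, parts of long untranslated regions, transcribed regulatory elements or unspliced RNA. A spliced transcript shows its strand through the sequence of its splice sites, whereas an unspliced one sequenced without strand information does not. In XX worms the DCC lowers transcription of genes along both X chromosomes.

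The order of the table's rows sorts the loci without an identifier into 2 kinds. On each chromosome the rows run from left to right 3 times. In the first run 99.6% of the rows that name a single gene found in the annotation are plus-strand genes, and in the second 99.5% are minus-strand genes. The last run held 231 rows over the 6 chromosomes, and every one of them lacked an identifier. The other 11 loci stood in the plus run (6) or the minus run (5). The file gives no strand, splicing, length or end for any locus, so this is a description of row order only.

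The loci were not spread evenly over the chromosomes. X held 69 of them (28.5%), at 3.89 per Mb, while the 5 autosomes held 173, at 2.096 per Mb. Identified loci averaging at least 1 FPKM stood at 165.9 per Mb on X and 153.7 per Mb on the autosomes, so the higher density on X was larger for the loci without one. Among autosomes, II held 42, I held 40, III held 36, V held 34 and IV held 21. When each chromosome was cut into 3 equal lengths, 119 lay in the left stretch (49.2%), 42 in the middle (17.4%) and 81 on the right (33.5%). Identified loci of at least 1 FPKM were spread as 31.2%, 38.1% and 30.6% over the same stretches. On X, 31 loci lay in the first 4 Mb, some of them at a start shared with other rows. A full left end was not particular to X. The left stretch held 32 of the 69 loci on X, 23 of 40 on I, 17 of 21 on IV, 17 of 34 on V and 16 of 36 on III. On II it held 14 of 42, fewer than the 21 of the right stretch.

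Most of the starts lay outside genes, between coding genes, more often than not a pair that point away from each other. Positions were read against Ensembl release 115, whose assembly matches ce11 and in which 66.7% of the chromosomes' length lies inside a gene of some type. Of the 242 starts, 32 (13.2%) fell inside an annotated gene. Loci with a matching annotated gene would carry its name, so a low share inside genes follows in part from the selection. In this table rows that overlap are given the start of their whole group: 33 of the 242 share their start with rows that have an identifier, and their own position is not known. Of the 209 with a start of their own, 17 (8.13%) lay inside a gene, of which 12 in an intron, 3 in a 5 prime UTR, 1 in a 3 prime UTR and 1 in an exon. The other 192 lay a median of 1859 bases from the nearest gene (interquartile range 844 to 2807), and the farthest lay 8483 bases away. Only 25 of these were within 500 bases of a gene.

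Of the 212 starts between a pair of coding genes, 110 (51.9%) lay between divergent genes, whose 5 prime ends face the gap, although such gaps make up 34.5% of the length between coding genes. Tandem gaps held 92 starts (43.4%, against 54.3% of the length) and convergent gaps 10 (4.72%, against 11.2% of the length). With the 193 starts of their own between coding genes the divergent share was 53.9%. The gaps were long: their median was 8794 bases for the 212 starts, against 908 bases over all gaps between coding genes. No start lay within 10 kb of a ribosomal RNA gene, and 16 lay within 10 kb of a tRNA gene. Another class is the genes for piRNAs, the small RNAs that guide the Piwi Argonaute in the worm germline. Within 10 kb of such a gene lay 25 starts. The same was not counted for identified loci or for the rest of the genome, so these counts have no background.

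**Figure D1:**
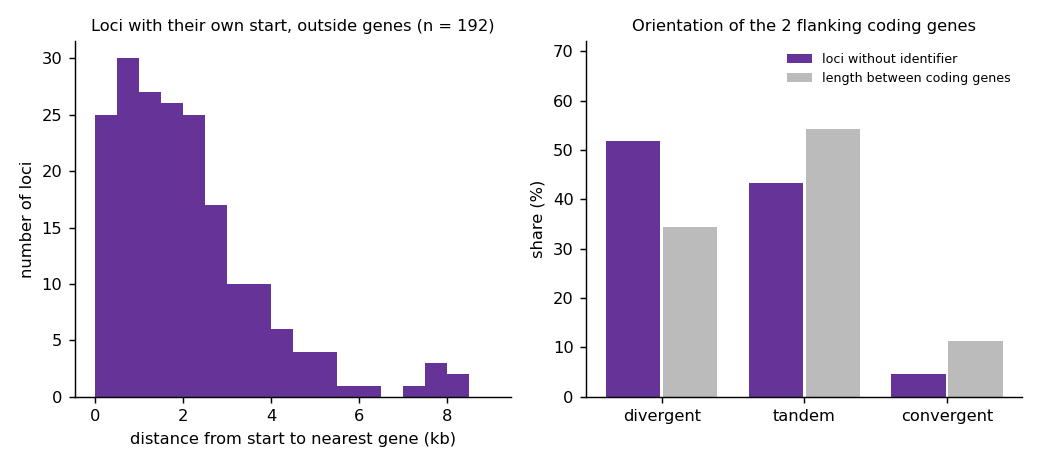
Left, number of loci (y) by distance in kb from the start to the nearest annotated gene (x), for the 192 loci outside genes with a start of their own. Right, share in percent (y) of the 212 starts between coding genes (purple) and of the total length between coding genes (grey) by orientation of the flanking genes; divergent gaps hold 51.9% of the starts and 34.5% of the length.

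These loci were low but measured. All 242 averaged at least 1 FPKM across the genotypes, against 38.7% of the 40427 rows with an identifier, and none was at 0 in every genotype, against 48.4% of those rows. The sources used here do not give how a locus without an identifier entered the table, and the part of such a selection in these levels was not tested. The mean FPKM ran from 1.32 to 391 with a median of 7.48, and 160 loci were under 10. The median was 2.75 FPKM for the DCC mutant (interquartile range 1.19 to 6.004), 11.1 for the 8rex deletion (7.79 to 17.7) and 7.32 for wild type (4.62 to 11.5). At least 10 FPKM was reached by 36 loci in the DCC mutant, 144 in the 8rex deletion and 71 in wild type. Together they held 0.311%, 0.420% and 0.309% of all FPKM in those genotypes. A single X-linked locus supplied 1172 of the 2888 FPKM in the DCC mutant; without it the sums were 1716 FPKM (DCC mutant), 3914 FPKM (8rex deletion) and 2826 FPKM (wild type).

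**Figure D2:**
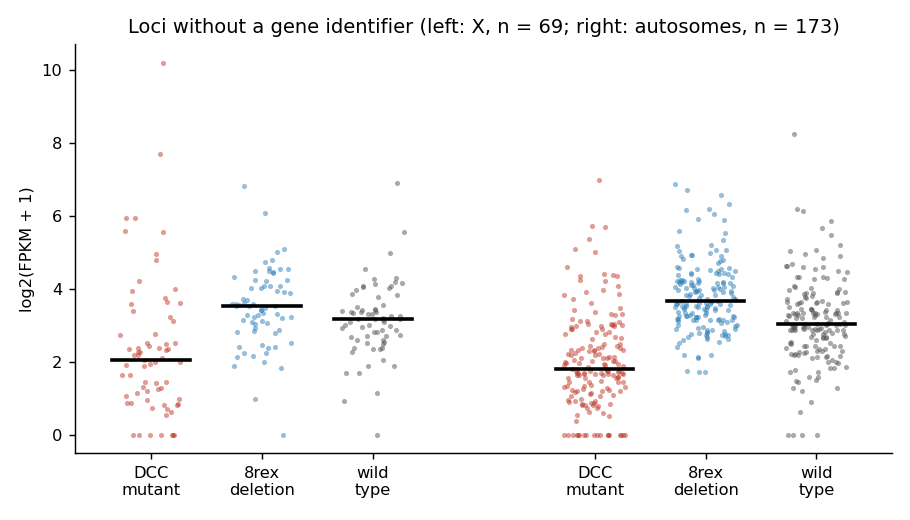
Level of each locus without an identifier as log2(FPKM + 1) (y) in the DCC mutant, the 8rex deletion and wild type (x), for 69 X-linked loci on the left and 173 autosomal loci on the right. Each point is a locus and bars are medians; over both sides together the medians correspond to 2.75, 11.1 and 7.32 FPKM.

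The order of the genotypes repeated from locus to locus. The DCC mutant had the lowest value at 197 of the 242 loci (81.4%), against 35.6% of the 15628 identified loci of at least 1 FPKM. The 8rex deletion had the highest value at 172 (71.1%), against 31.1% of identified loci. Both held at 154 loci (63.6%), against 18.7% of identified loci. All loci of a genotype share the same pooled libraries and are not independent. Whether a locus without an identifier entered the table through its reads in these pools, which hold unequal numbers of replicates, was not tested. The identified loci compared here were kept by their mean of at least 1 FPKM over the same pools. Whether that limit resembles the one on loci without an identifier is not known. Setting the loci against identified loci, here and for the differences below, therefore cannot tell such a selection apart from genotype.

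How expression differs once the complex is lost was asked by setting the DCC mutant against wild type. Loci without an identifier were lower in the DCC mutant: the median difference was -0.92 (interquartile range -1.78 to -0.36), with 203 below 0 and 37 above. The exact binomial 95% interval of that median, which covers counting error over loci only, was -1.09 to -0.83. Identified loci had a median of 0.00 (interquartile range -0.37 to 0.39). At least 2-fold lower were 110 of the 242 (45.5%), where the background over all loci of at least 1 FPKM was 12.6%. At least 2-fold higher were 18 (7.44%), close to the background of 8.53%. The 2601 identified loci that fell within the interquartile range of these loci's mean FPKM had a median of 0.00 and 16.5% at least 2-fold lower. Split by mean FPKM into 4 groups of about equal size, low to high, the loci had medians of -1.01, -1.13, -0.86 and -0.47. Without a pseudocount, at the 214 loci above 0 in both genotypes, the median was -1.11. Embryo stage, which differed between these pools, cannot be told apart from genotype here.

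The 8rex deletion was compared with wild type to ask whether deleting the recruitment sites changes expression. Here the same loci were higher: the median difference was 0.58 (interquartile range 0.05 to 1.07; binomial interval 0.41 to 0.72), with 186 above 0 and 55 below. Identified loci had a median of 0.00 (interquartile range -0.20 to 0.21). At least 2-fold higher were 71 of the 242 (29.3%), against a background of 9.66%. At least 2-fold lower were 10 (4.13%), against 6.99%. Both comparisons use the same wild-type value. Side by side, 22 loci were at least 2-fold lower in the DCC mutant and at least 2-fold higher in the 8rex deletion. By the same measure 9 were lower in both and 7 higher in both. With 110 loci lower in the DCC mutant and 71 higher in the 8rex deletion, some overlap would arise even between unrelated lists. The same overlaps were not counted over all loci, so these counts have no background. They do not show more sharing than unrelated lists of these sizes would give.

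**Figure D3:**
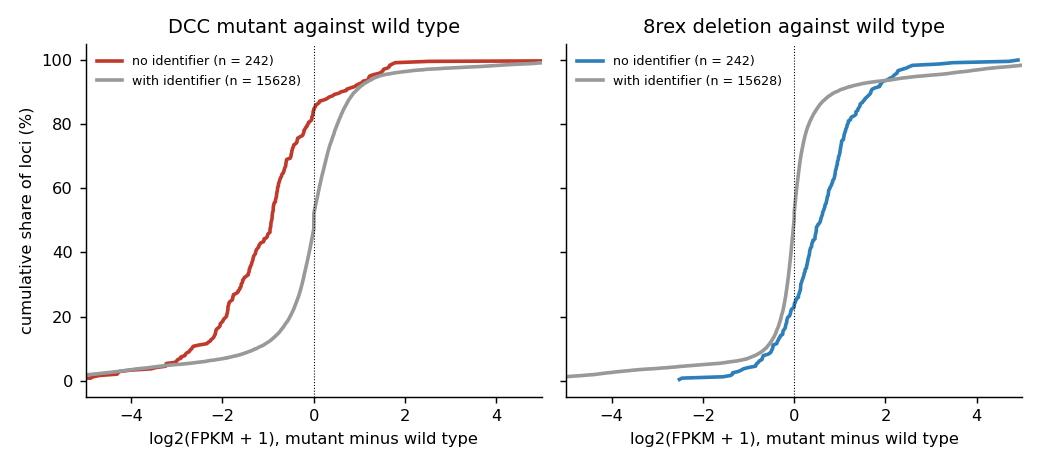
Cumulative share of loci in percent (y) by difference from wild type on the log2(FPKM + 1) scale (x), DCC mutant on the left and 8rex deletion on the right, for loci without (coloured, n = 242) and with (grey, n = 15628) an identifier; the axis is limited to -5 to 5. The coloured curve lies left of the grey one in the DCC mutant (medians -0.92 and 0.00) and right of it in the 8rex deletion (medians 0.58 and 0.00).

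Several annotated classes of non-coding RNA had shares past 2-fold near those of the loci without an identifier, but in both directions. Of the 2240 ncRNA loci of at least 1 FPKM, 39.3% were at least 2-fold lower and 19.7% at least 2-fold higher in the DCC mutant than in wild type. In the 8rex deletion 37.99% of them were higher by that measure and 30.6% lower. The 132 snoRNA loci (small nucleolar RNAs, which guide modification of ribosomal RNA) had 40.9% lower and 18.2% higher in the DCC mutant, and 39.4% higher and 34.8% lower in the 8rex deletion. The 37 miRNA loci had 37.8% lower and 18.9% higher in the DCC mutant, and 40.5% higher and 18.9% lower in the 8rex deletion. So the share of loci without an identifier at least 2-fold higher in the 8rex deletion, 29.3%, was below that of all 3 classes, and their 45.5% lower in the DCC mutant was a little above.

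The medians of these classes lay nearer to 0. In the DCC mutant they were 0.00 for ncRNA, snoRNA and miRNA loci, and in the 8rex deletion 0.00, 0.03 and 0.19 in that order. The 53 antisense RNA loci, which are transcribed across genes on the opposite strand, had a median of -0.45 in the DCC mutant (binomial interval -1.08 to 0.11), with 37.7% at least 2-fold lower, and 0.20 in the 8rex deletion, with 24.5% at least 2-fold higher. The 493 pseudogene loci had medians of -0.08 and 0.09 in the DCC mutant and the 8rex deletion, and the 75 lincRNA loci (long intergenic non-coding RNAs) -0.02 and 0.13. The 10837 loci with a single protein-coding gene stood at 0.03 and -0.01, with 6.53% at least 2-fold lower in the DCC mutant and 3.43% at least 2-fold higher in the 8rex deletion.

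X-linked loci without an identifier were about level with the autosomal ones in the DCC mutant. Their median difference was -0.89 on X (13 above 0, 56 below) and -0.94 on the autosomes (24 above, 147 below), so X stood 0.05 above the autosomes. For identified loci the medians were 0.46 on X and -0.04 on the autosomes, a distance of 0.50. Identified loci at the levels of the interquartile range above stood 0.36 apart. The 69 X-linked loci had a median level of 3.10 FPKM in the DCC mutant and 7.95 FPKM in wild type. By chromosome the DCC mutant medians ran from -1.34 on V, -1.23 on IV, -0.89 on X, -0.86 on III and -0.84 on II to -0.64 on I, so X lay within the range of the autosomes.

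In the 8rex deletion the loci were higher on every chromosome, and X had the lowest median. The medians ran from 0.33 on X and 0.43 on V to 0.67 on III, 0.72 on both IV and II, and 0.75 on I. X stood 0.34 below the autosomes (medians 0.33 and 0.67), while identified loci had medians of 0.00 on both. These distances have no replicate check.

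The nearest coding genes lay apart from the loci in these differences. For 183 loci the nearest coding gene had a row of its own with at least 1 FPKM on average. In the DCC mutant the loci had a median of -0.92 and those genes 0.01, and 146 of the 183 loci lay below their neighbour. On X the 59 loci had a median of -0.91 and the neighbours 0.54. On the autosomes the 124 loci had a median of -0.93 and the neighbours -0.22. In the 8rex deletion the loci had a median of 0.67 and the neighbours 0.07. Across the 183 pairs the differences in the DCC mutant had a Pearson's r of 0.10 and a Spearman's rho of -0.01, and in the 8rex deletion 0.12 and 0.04; these describe pairs of loci from the same pools, and some loci share a neighbour.

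**Figure D4:**
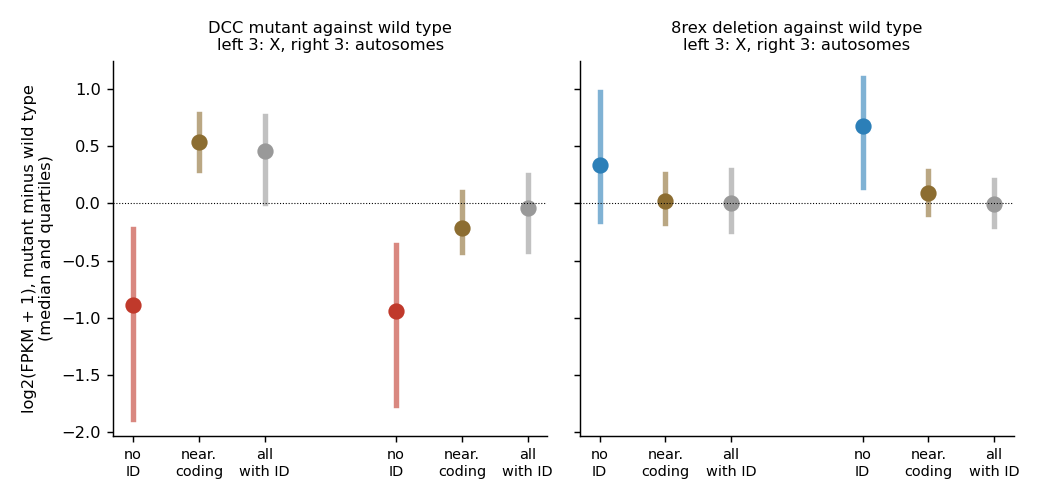
Median (points) and interquartile range (bars) of the difference from wild type on the log2(FPKM + 1) scale (y), in the DCC mutant (left panel) and the 8rex deletion (right panel), for loci without an identifier, their nearest coding genes and all identified loci (x), on X and then on the autosomes. In the DCC mutant, X-linked neighbours and identified loci lie at 0.54 and 0.46 while X-linked loci without an identifier lie at -0.89.

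The 11 loci in the plus and minus runs behaved differently from the 231 others by value. Their median difference in the DCC mutant was 1.08, with 8 above 0 and 3 below, against -0.94 for the 231, with 29 above 0 and 200 below. In the 8rex deletion the medians were 0.11 and 0.62. All 5 X-linked loci among the 11 were higher in the DCC mutant than in wild type, with a median of 1.66. The 6 autosomal ones split into 3 above and 3 below, with a median of 0.00. Of identified loci, 70.3% on X and 42.8% on the autosomes were above wild type, with medians of 0.46 and -0.04. In so few loci the counts above 0 cannot be set apart from those shares. The 64 X-linked loci of the last run had a median of -0.93, with 8 above 0.

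Each of the 5 X-linked loci was at its highest in the DCC mutant. Highest by fold was X, 14431946, 2266 bases from a pseudogene, which stood at 60.8 FPKM (DCC mutant), 22.3 FPKM (8rex deletion) and 9.66 FPKM (wild type), 6.30-fold higher in the DCC mutant than in wild type with p = 0.212 in the authors' deposited table. Also high was X, 17245709, 891 bases beyond the coding gene T25G12.13, which stood at 60.04, 21.4 and 18.4 FPKM in that genotype order (3.27-fold; the authors' deposited p = 0.0888). The locus at X, 3010850, whose start lies in the 3 prime UTR of the coding gene Y48D7A.1, stood at 46.8, 15.9 and 13.5 FPKM (3.46-fold; the authors' deposited p = 0.447). In these 3 the DCC mutant stood well above both other genotypes. A locus 164 bases from F08G12.1, at X, 11306037, stood at 26.5 FPKM (DCC mutant), 15.8 FPKM (8rex deletion) and 10.7 FPKM (wild type). The fifth, at X, 17253304, stood at 8.40, 4.69 and 4.69 FPKM in that order. None of the 5 was under 0.05 by the authors' p.

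Of the 6 autosomal loci, a pair on II was at least 2-fold higher in the DCC mutant than in wild type. The locus at II, 3314552, 1010 bases from F39E9.6, stood at 125.7 FPKM (DCC mutant), 46.9 FPKM (8rex deletion) and 43.3 FPKM (wild type), 2.90-fold with p = 0.170 in the authors' deposited table. The locus at II, 3291416 stood at 51.03, 13.5 and 23.6 FPKM in that order. The locus between them, at II, 3310467, stood at 20.2, 14.7 and 20.8 FPKM, so the DCC mutant was close to wild type there. The locus at III, 483882 stood at 31.5, 35.4 and 32.1 FPKM. It starts 14 bases inside the 5 prime UTR of the plus-strand coding gene F10C5.3 (WBGene00305067), an identifier the table does not hold.

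**Figure D5:**
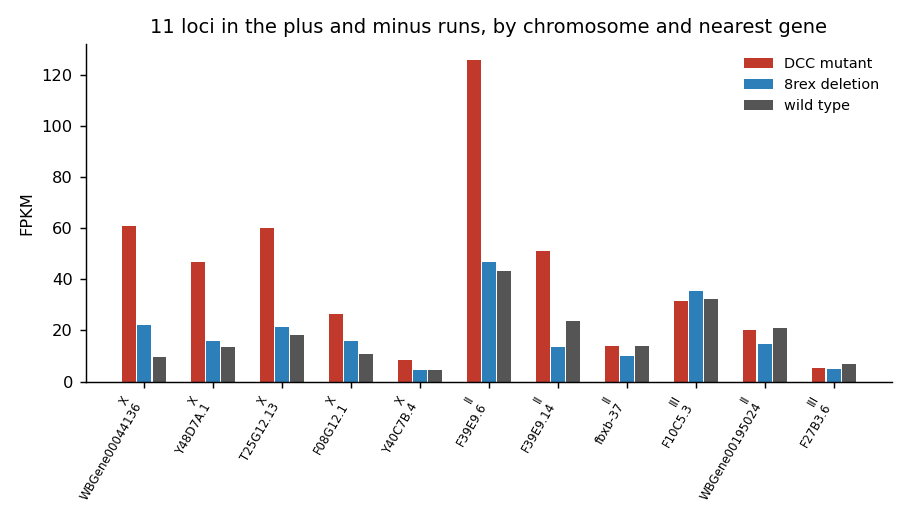
FPKM (y) of the 11 loci without an identifier that stand in the plus and minus runs (x, chromosome and nearest annotated gene), in the DCC mutant, the 8rex deletion and wild type. The 5 X-linked loci, on the left, are highest in the DCC mutant, as are the loci near F39E9.6 and F39E9.14 on II; the locus near F39E9.6 reaches 125.7 FPKM there.

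The most abundant locus was seen in a single genotype. The locus at X, 14403932 was listed at 1172 FPKM in the DCC mutant, 0 in the 8rex deletion and 0 in wild type. Its p = 5e-05 and q = 0.0632 in the authors' deposited table, for the DCC mutant, are the lowest among the 242 loci. It lies 2185 bases to the left of frpr-17, which encodes a receptor of the FMRFamide peptide receptor family and is transcribed away from it. The row of frpr-17 itself stood at 13.97, 4.77 and 2.92 FPKM in that genotype order (the authors' deposited p = 0.0266 for the DCC mutant). A listed 0 may stand for an estimate that failed, so no fold was computed for the locus.

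The other loci with the highest means followed several patterns. The locus at X, 1654375 stood at 207 FPKM (DCC mutant), 111 FPKM (8rex deletion) and 118 FPKM (wild type), 1.75-fold with p = 0.208 in the authors' deposited table; its start lies 71 bases from the coding gene ZK380.6. A locus 621 bases from cutl-4, a gene of the cuticlin-like family, at V, 17740522, was listed at 0 in the DCC mutant and stood at 117 FPKM in 8rex deletion embryos and 299 FPKM in wild type (the authors' deposited p = 0.167 in the DCC mutant). The locus at III, 9393732 starts 2 bases inside rgr-1, which encodes a subunit of the Mediator complex, and stood at 51.7, 79.5 and 71.97 FPKM in the DCC mutant, the 8rex deletion and wild type. The row of rgr-1 stood at 29.8, 29.3 and 29.8 FPKM in that order, nearly level. The locus at I, 12480115, 1521 bases from the C-type lectin gene clec-12, was lower in both mutants, at 40.5, 30.6 and 69.7 FPKM. The locus grouped with meg-4, which encodes a germ granule protein, stood at 45.8, 25.5 and 46.4 FPKM; it shares the start X, 1682954 with other rows, so its own position is not known.

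The remaining 3 of the 10 highest had their largest values in the 8rex deletion. A locus 2855 bases from ZK669.5, at II, 7949735, stood at 6.91 FPKM (DCC mutant), 93.6 FPKM (8rex deletion) and 49.6 FPKM (wild type). The locus at V, 3743025, 551 bases before the myotubularin-family gene mtm-9, stood at 4.02, 70.2 and 32.3 FPKM in that order. The locus at II, 4272227, 3975 bases before the neuropeptide receptor family gene npr-42, was listed at 0 in the DCC mutant and stood at 104 FPKM in 8rex deletion embryos and 18.2 FPKM in wild type. None of these differences had an authors' p under 0.05. For the locus near npr-42 the DCC mutant comparison was taken as not tested.

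Values of exactly 0 were found at 28 loci, 25 of them at 0 in the DCC mutant, 1 in the 8rex deletion and 5 in wild type. As shares these were 10.3%, 0.413% and 2.07%, against 12.5%, 6.94% and 8.18% of identified loci of at least 1 FPKM. At 7 loci a single genotype was at 0 while both others had at least 10 FPKM, and that genotype was the DCC mutant each time. Among identified loci it was the DCC mutant at 218 of 407. Besides the loci near cutl-4 and npr-42, these were the following 5. The locus at III, 2907047, in the gap before the cadherin gene cdh-1, stood at 72.1 FPKM in 8rex deletion embryos and 27.6 FPKM in wild type. The locus at I, 2659481 stood at 65.0 and 28.6 FPKM, and the locus at II, 13359771, 3579 bases from the peptide receptor gene dmsr-3, at 16.7 and 18.8 FPKM. Of these 3, the loci on III and I were higher in the 8rex deletion than in wild type, while the locus near dmsr-3 was close in both. The locus at III, 5092890 stood at 10.1 FPKM in 8rex deletion embryos and 24.9 FPKM in wild type. The locus grouped with sec-61.G, which encodes a subunit of the protein translocation channel, stood at 21.2 and 15.2 FPKM; it shares its start at V, 10896640 with other rows.

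By the authors' test of the DCC mutant against wild type, 137 of the 242 loci had a p under 1 and were taken as tested. Of these 137, 8 were, in the authors' deposited table, at an unadjusted p under 0.05 (5.84%), against a background of 2.13% over all tested loci. Of the 8, 6 were lower in the DCC mutant (background 0.736%) and 2 higher (background 1.39%), and none had a q under 0.05. The median of the authors' p was 0.257 over these 137 and 0.663 over all tested loci. The DCC mutant was at 0 for 5 of those 6. Before dpf-2, a gene of the dipeptidyl peptidase family, the locus at X, 14831302, 529 bases away, was at 0 in the DCC mutant, 2.55 FPKM in 8rex deletion embryos and 18.5 FPKM in wild type (the authors' deposited p = 0.0009). Before the protein kinase C gene pkc-2, the locus at X, 9361516, 3302 bases away, was at 0, 17.8 and 8.47 FPKM in that order (the authors' deposited p = 0.00305). These 2 X-linked loci differ in the 8rex deletion, one being lower and one higher than in wild type. The loci at III, 5092890, II, 13359771 and I, 2659481, given above, had p of 0.00405, 0.0173 and 0.0200 in the authors' deposited table. Before the FMRFamide-like neuropeptide gene flp-14, the locus at III, 12909311, 1199 bases away, stood at 2.50 FPKM (DCC mutant), 11.4 FPKM (8rex deletion) and 8.71 FPKM (wild type), with the authors' deposited p = 0.0346.

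Beside the locus near frpr-17, the other higher one was on X. It lies at X, 1339571, 2396 bases from the transthyretin-related gene ttr-37, and stood at 29.8 FPKM (DCC mutant), 4.48 FPKM (8rex deletion) and 7.95 FPKM (wild type), 3.75-fold with p = 0.0132 in the authors' deposited table. Of the 18 loci at least 2-fold higher in the DCC mutant, 9 were on X and 6 stood in the plus or minus run. The 9 made up 13.0% of the X-linked loci without an identifier, against 16.0% of identified X-linked loci. The autosomal locus at II, 3809243, 1066 bases from F54D10.5, was among the 6 with the largest such differences, at 32.8, 6.73 and 9.66 FPKM in the DCC mutant, the 8rex deletion and wild type (3.39-fold; the authors' deposited p = 0.129).

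By the authors' test of the 8rex deletion against wild type, 209 of the 242 had a p under 1, and 5 of them (2.39%) were under 0.05 in the authors' deposited table, against a background of 0.501%. All 5 were higher in the 8rex deletion (background 0.334%), 0 were lower (background 0.167%), and the lowest q in the authors' deposited table was 0.999938. Lowest in p was III, 12840742, 1779 bases from Y37D8A.4, which was listed at 0 in the DCC mutant, 28.9 FPKM in the 8rex deletion and 0 in wild type (the authors' deposited p = 0.0045). Next was III, 2903647, in the same gap as the locus before cdh-1, which stood at 4.003, 19.1 and 3.87 FPKM in that order (4.93-fold; the authors' deposited p = 0.0192). Near the neuropeptide gene nlp-21, the locus at III, 11394110, 848 bases away, stood at 7.00, 22.3 and 5.81 FPKM (3.83-fold; the authors' deposited p = 0.0336). In all 3 the 8rex deletion alone was high. Near the chemoreceptor-class gene sra-34, the locus at II, 4543793, 125 bases away, stood at 1.49, 9.71 and 2.94 FPKM (the authors' deposited p = 0.0406). Last, the locus at X, 15460890 stood at 1.72, 9.73 and 1.21 FPKM (the authors' deposited p = 0.0497).

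The largest differences in the 8rex deletion were mostly at loci low in wild type. The locus grouped with cct-1, which encodes a chaperonin subunit, was listed at 0 in the DCC mutant, 25.1 FPKM in the 8rex deletion and 0 in wild type; it shares the start II, 8185436 with other rows. The locus grouped with ccep-290, which encodes a protein of the ciliary transition zone, stood at 3.63 FPKM (DCC mutant), 59.8 FPKM (8rex deletion) and 4.44 FPKM (wild type), 13.5-fold with p = 0.232 in the authors' deposited table, while the row of ccep-290 itself stood at 17.6, 21.0 and 17.8 FPKM. It shares the start I, 3487812 with other rows. Neither had a position of its own. In an intron of Y57A10C.9, the locus at II, 12435994 stood at 1.80, 8.02 and 0 FPKM in that order of genotypes. The locus at II, 2964452 stood at 0.822, 10.3 and 0.876 FPKM, and the locus at II, 14315640 at 5.98, 15.1 and 1.81 FPKM.

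Of the 10 loci at least 2-fold lower in the 8rex deletion, 9 were also at least 2-fold lower in the DCC mutant, against 45.5% of all 242 loci. Both differences subtract the same wild-type value, so a high wild-type value by itself lowers both, and the overlap is a description only. The locus at I, 3332642 stood at 1.23 FPKM (DCC mutant), 3.27 FPKM (8rex deletion) and 23.4 FPKM (wild type), 7.15-fold lower in the 8rex deletion than in wild type with p = 0.0582 in the authors' deposited table. Before the dopamine receptor gene dop-4, the locus at X, 1293600, 1653 bases away, stood at 0.673, 4.33 and 14.8 FPKM (3.41-fold lower in the 8rex deletion; the authors' deposited p = 0.0847). One of a pair of loci grouped with the unconventional myosin gene hum-6, sharing the start X, 2303077 with other rows, stood at 3.803, 4.24 and 12.7 FPKM. All 3 were lower in both mutants, so wild type was highest by definition. Before cca-1, which encodes a voltage-gated calcium channel subunit, the locus at X, 7876849, 895 bases away, was at 0, 0.986 and 4.06 FPKM in the same order. With the loci near dpf-2 and cutl-4 these made up the 6 lowest.

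Where a locus lay inside an annotated gene, the gene's own row could be set beside it. This was possible for 13 loci with a start of their own, in 12 genes with a row of their own of at least 1 FPKM. In the DCC mutant 11 of the 13 loci were below wild type, near the 83.9% of all 242 loci. The gene rows beside them were above wild type for 10, against 52.4% of loci with a single protein-coding gene. On X, 6 of 7 loci were below wild type, against 81.2% of all 69 X-linked loci. The gene row was above it for all 7, against 70.3% of identified X-linked loci. An example is a pair of loci in an intron of daf-12, which encodes a nuclear hormone receptor that acts in dauer formation and lifespan. The first, at X, 10637277, stood at 0.953 FPKM (DCC mutant), 3.50 FPKM (8rex deletion) and 7.08 FPKM (wild type). The second, at X, 10639485, stood at 0.618, 15.2 and 6.31 FPKM. Both were lowest in the DCC mutant, whereas the daf-12 row was highest there, at 22.6, 14.5 and 11.1 FPKM in that order. In an intron of deg-1, which encodes a channel subunit of the DEG/ENaC family, the locus at X, 7762008 stood at 3.52, 21.4 and 15.4 FPKM, while the deg-1 row stood at 13.7, 8.19 and 9.16 FPKM. In an intron of the potassium channel gene irk-3, the locus at X, 14369891 stood at 4.14, 13.7 and 7.57 FPKM, and the irk-3 row at 2.57, 2.04 and 1.92 FPKM.

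In 4 cases the start lay inside an annotated gene whose identifier the table does not hold, one of them F10C5.3 above. The locus at I, 1272392, in an intron of Y48G8AR.8, stood at 19.3 FPKM (DCC mutant), 16.7 FPKM (8rex deletion) and 21.5 FPKM (wild type). In an intron of T16G12.12, the locus at III, 10056739 stood at 1.19, 20.1 and 11.5 FPKM in that order. In an exon of the non-coding RNA gene C23G10.14, the locus at III, 6189481 stood at 23.0, 17.7 and 6.83 FPKM. The 4 loci thus had no common order of genotypes. Of the 46926 genes in the annotation used here, 1003 have an identifier that the table does not hold.

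Some loci without an identifier lay close together. Consecutive starts within 5 kb of each other made 37 pairs among 64 of the 242 loci. The same was not counted for identified loci, so this count has no background. The pairs include those at I, 2049140, at IV, 1775277 and at X, 2303077. The loci of each of these share a start with other rows, so the distance between them is not known. The 2 members of a pair were on the same side of wild type in 25 of the 37 pairs in the DCC mutant and in 30 of the 37 in the 8rex deletion. Since 83.9% of all 242 loci were below wild type in the DCC mutant and 76.9% above it in the 8rex deletion, most loci share that side whether or not they lie close together. A group of 3 stood at III, 2903647 to 2907047, in the gap between idpa-1 and cdh-1. Its middle locus, at 2905691, stood at 1.26 FPKM (DCC mutant), 19.9 FPKM (8rex deletion) and 16.0 FPKM (wild type), so all 3 loci of the group were at their highest in the 8rex deletion. The pair at II, 11509733 and 11510049 stood at 5.20 and 7.18 FPKM in the DCC mutant, 21.7 and 35.5 FPKM in the 8rex deletion, and 19.1 and 23.6 FPKM in wild type.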

How the data were processed

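Poly(A) RNA of embryos of 3 genotypes was sequenced. Per the submitters' processing notes, the tools named are Cufflinks 2.2.1, TopHat2 2.1.1 and cutadapt 1.2.1, and the build is ce11. What each did, with which settings and whether strand was used, is not stated. The authors deposited FPKM, 1 value per genotype with replicates combined, a log2 fold change without pseudocount, and p-values and q-values whose test is not named; a p of 1 was taken as not tested. The deposited start was counted from 0 and is given here from 1. Ensembl release 115 (WBcel235, the ce11 assembly) gave genes and distances. Of rows naming a single gene, 72.9% of those with a start of their own began at that gene's annotated start, against 11.9% of those sharing a start.

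Differences were taken as log2(FPKM + 1) at a mean of at least 1 FPKM. The design called for no test, since the files hold 1 value per genotype. The loci named were the 10 with the highest mean, the 6 highest and 6 lowest differences in each comparison, those with an authors' p under 0.05, the 5 highest on X, and those at 0 in 1 genotype with at least 10 FPKM in both others; loci inside genes, in close pairs or in the plus and minus runs were added after their values were seen. The loci and lists were chosen with earlier results of these data known. The summary function was tested on simulated data. Python 3.11.15, numpy 2.4.6, pandas 2.3.3, scipy 1.17.1 and matplotlib 3.10.9 were used. No sequence is shown.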

Additional observations from a re-analysis of the deposited data

How the results depend on the processing

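No replicate could be left out and no paired analysis was possible because the table holds 1 pooled value per genotype. Across 67 recalculations of the summary results, 62 stayed within the binomial interval of the main value or within 1.5 times a count. The 62 include a setting without a minimum mean. It could not change the values of these loci, since all 242 averaged at least 1 FPKM. In the DCC mutant the median of -0.92 became -1.20 with a pseudocount of 0.1 and -1.11 with none; in the other settings it lay between -0.94 and -0.90. With a mean of at least 5 FPKM the count at least 2-fold higher in the 8rex deletion was 47 of 183 loci. At the lower minimum it was 71 of 242, so part of this change is the smaller number of loci. The share at 1 FPKM or more was 75.2% when asked of every genotype (29.1% of identified rows). The share of starts inside a gene was 8.13% among loci with a start of their own. The X-to-autosome distance in the DCC mutant ran from -0.06 to 0.09 over the settings, so its sign depends on the setting, and in the 8rex deletion from -0.38 to -0.34. Restricting to the last run, to loci with a start of their own, or leaving out the most abundant locus was chosen after the data were seen. Of the recalculated differences of named loci, 128 moved by at most 1.5-fold and 20 by more, all with a pseudocount of 0.1. What limits the precision cannot be stated, since the depth is unknown.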

Other observations

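Further X-linked loci of the last run were higher in the DCC mutant, although that run was lower as a whole. The locus at X, 6740234 stood at 17.7, 3.02 and 5.47 FPKM in the DCC mutant, the 8rex deletion and wild type. The locus at X, 10677365 stood at 15.0, 6.10 and 5.98 FPKM in that order, and the locus at X, 17237992 at 10.9, 4.26 and 4.17 FPKM. The last of these lies on the right end of X, in the stretch that also holds the plus-run locus at X, 17245709. On X the DCC mutant held the highest of the 3 values at 12 of 69 loci, and on the autosomes at 9 of 173. Among all 242 loci it was highest with the 8rex deletion next at 6.20%, and with wild type next at 2.48%. Among identified loci these shares were larger, at 18.4% and 21.9%. At least 2-fold higher in the DCC mutant were 7.81% of the 64 X-linked loci of the last run, against 16.0% of identified X-linked loci. The loci named here were picked out after their values were seen, and no test was made.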
